A study of Homo sapiens with 6 samples.

Results

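Inflammatory cytokines other than the CXC chemokines were followed through 10 genes, IL1A, IL1B, IL18, IL32, IL6, IL11, LIF, CSF2, CCL2 and CCL20. They were picked by name, with earlier results of these data known. Each was found as 1 of the 40295 genes in the count table. The cells were HDQ-P1, an established human cancer cell line. RNA was sequenced from 3 untreated libraries and from 3 libraries of cells given Y-320 (1 μM, 48 h), and both groups grew in high-glucose DMEM with fetal bovine serum. The untreated cells were not described as having received the solvent. Y-320 is a phenylpyrazoleanilide immunomodulator known from work on interleukin-17. The study examined it as a compound that raises the readthrough of premature stop codons caused by the aminoglycoside G418. By itself Y-320 did not affect readthrough there, and G418 is not named among the treatments of the sequenced cells.

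Cytokines are secreted proteins through which cells signal infection or injury to each other. IL-1α and IL-1β bind the receptor IL1R1 with its partner IL1RAP, and IL-18 binds a related receptor pair, and both routes pass through IRAK kinases and TRAF6 to NF-κB. IL-6, IL-11 and LIF each have a receptor chain of their own but share the signalling chain gp130, encoded by IL6ST, which activates STAT3. GM-CSF, the product of CSF2, acts on myeloid cells, while CCL2 and CCL20 attract leukocytes that carry CCR2 and CCR6. Many cytokine mRNAs carry AU-rich elements in the 3′UTR that shorten their life.

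The libraries held 21045401 to 22740535 estimated counts each. Values below are given in these counts or as CPM, counts divided by the TMM-scaled library size in units of 1e6 counts. Each count equalled 0.0438 to 0.0480 CPM, and a gene without a count could be present at up to 3 counts, or 0.131 to 0.144 CPM, a limit that covers counting error only. The chi-square per degree of freedom between 2 libraries, 1 for pure counting noise, was 2.02 to 2.98 within groups and 40.2 to 42.1 between them. The labels do not say that replicates were separate cultures, so p-values measure only the spread between these samples, which may be technical. Adjusted p-values are from edgeR's quasi-likelihood test over 16580 genes with Benjamini-Hochberg adjustment, and a gene was called at an adjusted p under 0.05.

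Cytokine genes are commonly controlled through AU-rich elements and through factors that bind just upstream of the start, so a few of both kinds of sequence are shown. The nonamer TTATTTATT was present in the 3′UTR of the canonical transcript for 4 of the 10 genes, IL11 with 6 copies (overlapping copies counted), CSF2 with 3, and IL1B and LIF with 2 each. It was present in 8.12% of 20219 protein-coding genes of the table. Capitals mark the nonamer or its overlapping copies in a 27-base stretch of each (GENCODE 44 transcripts on hg38, written with T). The stretches lie at chr19:55365948-55365974 (minus strand), chr5:132076075-132076101 (plus strand), chr2:112829996-112830022 (minus strand) and chr22:30240959-30240985 (minus strand).
IL11: agccagatcTTATTTATTTATTTATTt
CSF2: taaaatatTTATTTATTTATTTATTta
IL1B: cttccctatTTATTTATTTATTtgttt
LIF: tccgggcccTTATTTATTatttaaaca

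The remaining genes held no nonamer, although the shorter pentamer ATTTA was counted 6 times in IL6, 5 times in IL1A, 3 times in CCL20 and 1 time in CCL2, against a median of 1 over all these genes. IL18 and IL32 held neither. A match describes the letters only.

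Upstream windows from RefSeq (GRCh38.p14) were matched for 7 of the 10 genes. IL18, LIF and CCL2 had none in the table used. IL1A, IL6 and IL11 are printed. Each rose with Y-320 (below) and held, outside annotated exons, a match to AP-1 (TGANTCA) or NF-κB (GGG, any 2 bases, TTTCC). Many cytokine genes are induced through these factors. Because the windows were picked by rise and match, they are no test of either factor. Both strands were searched in the 250 bases before the start, where 6.57% and 1.73% of 35116 windows held these 2 motifs. Capitals mark the matches: in IL1A (chr2:112784494-112784743, minus strand) a TATAAA and the AP-1 letters, in IL6 (chr7:22726950-22727146, plus strand, ending where an annotated exon begins) the NF-κB letters, and in IL11 (chr19:55370464-55370713, minus strand) the AP-1 letters.
IL1A: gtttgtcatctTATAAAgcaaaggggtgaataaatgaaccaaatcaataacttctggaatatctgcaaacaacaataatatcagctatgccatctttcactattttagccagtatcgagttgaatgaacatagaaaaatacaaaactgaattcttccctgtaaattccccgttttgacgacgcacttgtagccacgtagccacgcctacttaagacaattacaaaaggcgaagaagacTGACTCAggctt
IL6: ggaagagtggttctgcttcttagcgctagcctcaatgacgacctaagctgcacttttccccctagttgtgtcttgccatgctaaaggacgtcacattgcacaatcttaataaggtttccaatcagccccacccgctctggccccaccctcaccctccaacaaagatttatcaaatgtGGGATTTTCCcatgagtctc
IL11: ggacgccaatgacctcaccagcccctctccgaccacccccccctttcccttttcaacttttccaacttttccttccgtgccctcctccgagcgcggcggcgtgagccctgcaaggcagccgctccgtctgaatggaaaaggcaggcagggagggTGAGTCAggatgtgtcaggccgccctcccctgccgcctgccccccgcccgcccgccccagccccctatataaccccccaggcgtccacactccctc

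Among the other windows, NF-κB letters were also present in IL32, which rose but whose match lies in an annotated exon. They were also present in CCL20, which was too low to test. A second, overlapping IL1A window held the AP-1 letters printed above and a further AP-1 match, TGAGTCA, in the part not printed. IL1B and CSF2 each held a STAT match (TTCNNNGAA, present in 6.57% of windows) and neither an AP-1 nor an NF-κB match.

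Exposure to Y-320 went with higher mRNA of 7 of these cytokine genes. Of the 10, 8 had enough counts to be tested, 7 were called higher, none was called lower, and IL18 did not pass the threshold. Over all genes tested, 51.5% were called in either direction, 26.2% higher and 25.4% lower. DESeq2 called 20.5% higher and 19.8% lower. A rise of at least 1 log2 unit was found for IL32, CSF2, IL6 and IL11, 4 of the 8, where 2.43% of all genes rose that much and 2.59% fell that much. For all 7 called genes every Y-320 library lay above every untreated library, as for 29.8% of all genes, with 29.4% the other way round and 59.2% without overlap. The median log2 fold change of the 8 was 0.97, against 0.00 over all genes tested. Because the genes were chosen with earlier results of these data known, the comparison with all genes is a description only. Summed over the 10 genes, the level was 55.2 to 59.2 CPM in untreated libraries and 106 to 108 CPM with Y-320. In bulk RNA, a larger number of expressing cells and more RNA per cell cannot be told apart.

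**Figure D1:**
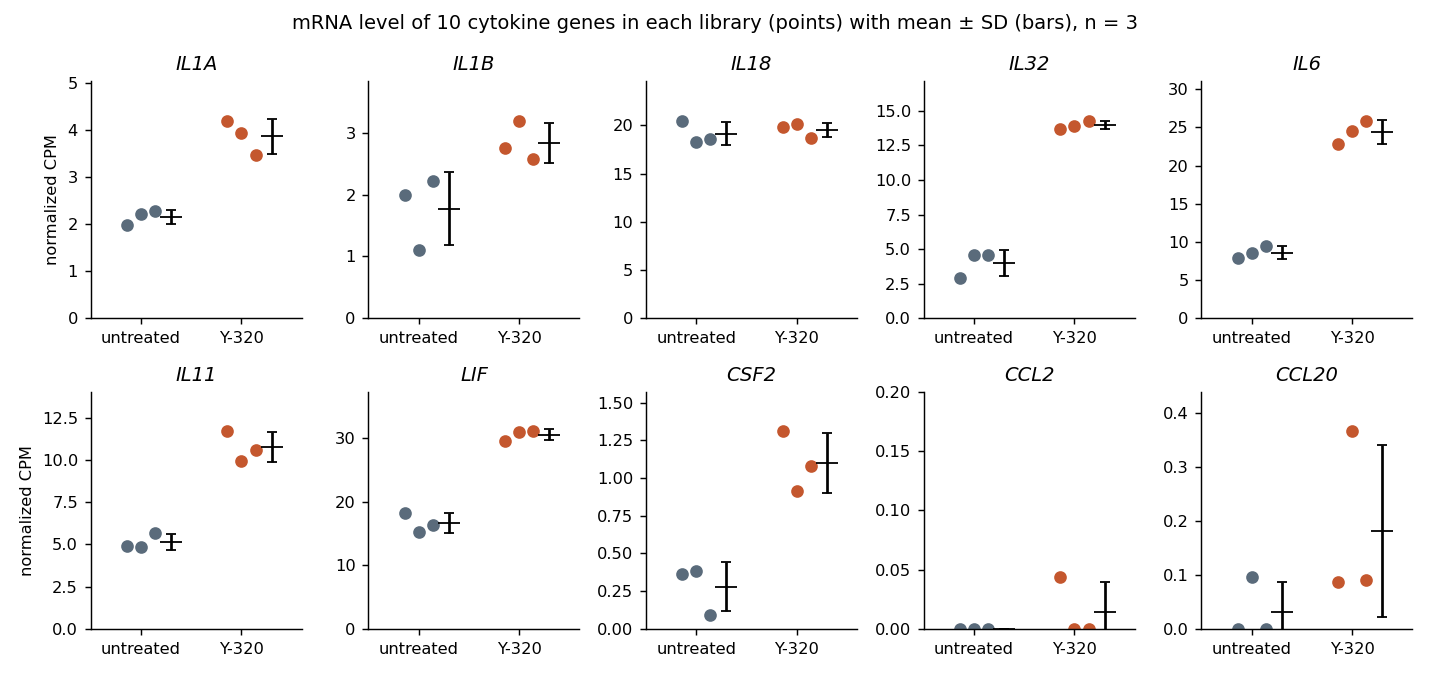
Normalized CPM of the 10 cytokine genes in each library (points), with the mean ± SD of 3 libraries as bars, each panel on its own linear axis from 0. The groups are separate for IL1A, IL1B, IL32, IL6, IL11, LIF and CSF2, overlap for IL18, and rest on at most 8 counts a library for CCL2 and CCL20.

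The 3 genes of this group whose products signal through gp130 all rose. IL6 (chr7:22725884-22732002, plus strand), the main driver of the acute-phase response, had 173, 177 and 209 counts without the compound, against 520, 535 and 573 with it. The lowest Y-320 library stood well above the highest untreated library. Its level went from 8.59 ± 0.813 CPM to 24.4 ± 1.55 CPM (SD, n = 3 libraries each), a log2 fold change of 1.50 (SE 0.079, 95% interval 1.32 to 1.68, adjusted p = 1.28e-07 by edgeR).

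Exons of IL6 overlap STEAP1B and the antisense gene IL6-AS1 on the other strand, and the sources used here do not say whether counting used strand. IL6-AS1 was not among the genes counted, so its reads could not be compared with those of IL6. STEAP1B had 41.2 to 56 counts untreated and 63.4 to 73.5 with Y-320, fewer than IL6 in every library. Of the 31-base words of IL6, 9.69% also occur in another gene, most often IL6-AS1.

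IL11 (chr19:55364382-55370463, minus strand), a cytokine linked to stroma and fibrosis, had 108, 101 and 125 counts without the compound, against 267, 217 and 234 with it. The groups did not overlap, and Y-320 replicate 1 was the highest. The mean rose from 5.15 ± 0.467 to 10.7 ± 0.89 CPM (SD, n = 3 libraries), a log2 fold change of 1.06 (SE 0.1, 95% interval 0.84 to 1.29, adjusted p = 1.03e-05 by edgeR). LIF (chr22:30240453-30246759, minus strand), which keeps stem cells undifferentiated in culture and is made by many tumours, had 403, 319 and 360 counts without the compound, against 676, 678 and 690 with it. The Y-320 libraries were closer to each other than the untreated ones. LIF rose from 16.6 ± 1.5 to 30.6 ± 0.867 CPM (SD, n = 3 libraries), a log2 fold change of 0.88 (SE 0.063, 95% interval 0.74 to 1.02, adjusted p = 1.22e-06 by edgeR). Exons of LIF overlap the antisense genes LIF-AS1 and LIF-AS2.

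IL32 (chr16:3065297-3082192, plus strand) encodes a proinflammatory cytokine found in epithelial cells and lymphocytes and known for inducing other cytokines. Its counts were 65, 95.1 and 100 in untreated libraries and 313, 304 and 317 with Y-320. Untreated replicate 1 was low beside the other two, whereas the Y-320 libraries differed little. The mean went from 4.01 ± 0.926 to 14 ± 0.301 CPM (SD, n = 3 libraries), a log2 fold change of 1.80 (SE 0.13, 95% interval 1.51 to 2.10, adjusted p = 1.49e-06 by edgeR), or 3.49-fold.

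CSF2 (chr5:132073789-132076170, plus strand), the gene of GM-CSF, was near the detection limit without the compound, with 8, 8 and 2 counts. With Y-320 it had 30, 20 and 24 counts, so the groups did not overlap. The level was 0.279 ± 0.163 CPM untreated and 1.1 ± 0.2 CPM with Y-320 (SD, n = 3 libraries). The log2 fold change of 1.97 had an SE of 0.41 and a 95% interval of 1.06 to 2.88 (adjusted p = 0.00229 by edgeR), the widest interval of the 8 genes. Its size is therefore known less well than that of IL6 or IL32, whose intervals lie within it.

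Of the IL-1 family, IL1A and IL1B were called higher, with point estimates below those of the other called genes, and IL18 did not pass the test. The 95% intervals of IL1A and IL1B include the estimates for LIF (0.88) and IL11 (1.06). IL1A (chr2:112773925-112784493, minus strand) encodes IL-1α, an alarm signal that acts when released from damaged cells. It had 44, 46 and 50 counts without the compound, against 96, 86 and 77 with it, without overlap. The mean was 2.15 ± 0.143 CPM untreated and 3.87 ± 0.368 CPM with Y-320 (SD, n = 3 libraries), a log2 fold change of 0.84 (SE 0.15, 95% interval 0.51 to 1.17, adjusted p = 7.85e-04 by edgeR).

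IL1B (chr2:112829751-112836816, minus strand) encodes IL-1β, which is secreted after cleavage by caspase-1. Its counts were 44, 23 and 49 without the compound, against 63, 70 and 57 with it. Untreated replicate 2 stood at the bottom, and the nearest values of the groups were only 49 and 57. The log2 fold change was 0.68 (SE 0.24, 95% interval 0.14 to 1.21, adjusted p = 0.037 by edgeR), from 1.77 ± 0.59 to 2.84 ± 0.325 CPM (SD, n = 3 libraries). This call was not firm: it was lost without any 1 of 5 libraries, with log2 fold changes of 0.77 (adjusted p = 0.0528) without untreated replicate 1, 0.43 (0.0936) without untreated replicate 2, 0.70 (0.0673) without Y-320 replicate 1, 0.58 (0.118) without Y-320 replicate 2 and 0.74 (0.0526) without Y-320 replicate 3, all by edgeR. DESeq2 gave an adjusted p of 0.0682.

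IL18 (chr11:112143253-112164096, minus strand), whose product is stored as a precursor in epithelial cells, had 452, 381 and 412 counts without the compound, against 451, 438 and 415 with it. The groups overlapped. The log2 fold change was 0.03 (SE 0.06, adjusted p = 0.739 by edgeR), and its 95% interval of -0.11 to 0.16 does not reach the change of any of the 7 called genes.

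The chemokine genes were at the detection limit. CCL2 (chr17:34255274-34257208, plus strand), the monocyte attractant, had no count in any untreated library and 1, 0 and 0 counts with Y-320, so no fold is given. CCL20 (chr2:227805739-227817564, plus strand), which attracts cells bearing CCR6, had 0, 2 and 0 counts without the compound, against 2, 8 and 2 with it. Its groups overlapped, and the sums of 2 and 12 counts gave a depth-adjusted ratio of 5.83 with an exact Clopper-Pearson 95% interval of 1.3 to 53.7, for counting error only. Y-320 replicate 2 gave 8 of the 12 counts. Neither gene passed the filter, and with no filter the adjusted p by edgeR was 0.533 for CCL2 and 0.13 for CCL20.

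Because mRNAs differ in length, levels of different genes were compared as CPM per kb of the canonical transcript. In untreated cells IL18 was the most abundant at 17.2 ± 1.05, followed by IL6 at 7.62 ± 0.722, IL32 at 4.91 ± 1.13, LIF at 4.29 ± 0.388, IL11 at 2.16 ± 0.196, IL1B at 1.18 ± 0.392, IL1A at 1.07 ± 0.0709 and CSF2 at 0.354 ± 0.207 CPM per kb (SD, n = 3 libraries). The neighbours IL32 and LIF overlapped in their libraries, as did IL1B and IL1A. CSF2 overlapped with CCL20, and CCL20 with CCL2. With Y-320 the order was headed by IL6 at 21.6 ± 1.37, above IL18 at 17.5 ± 0.616 and IL32 at 17.1 ± 0.367 CPM per kb (SD, n = 3 libraries), and the last 2 overlapped. LIF stood at 7.9 ± 0.224, IL11 at 4.51 ± 0.374, IL1A at 1.92 ± 0.182, IL1B at 1.89 ± 0.215 and CSF2 at 1.4 ± 0.253 CPM per kb (SD, n = 3 libraries), with overlap between IL1A and IL1B.

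**Figure D2:**
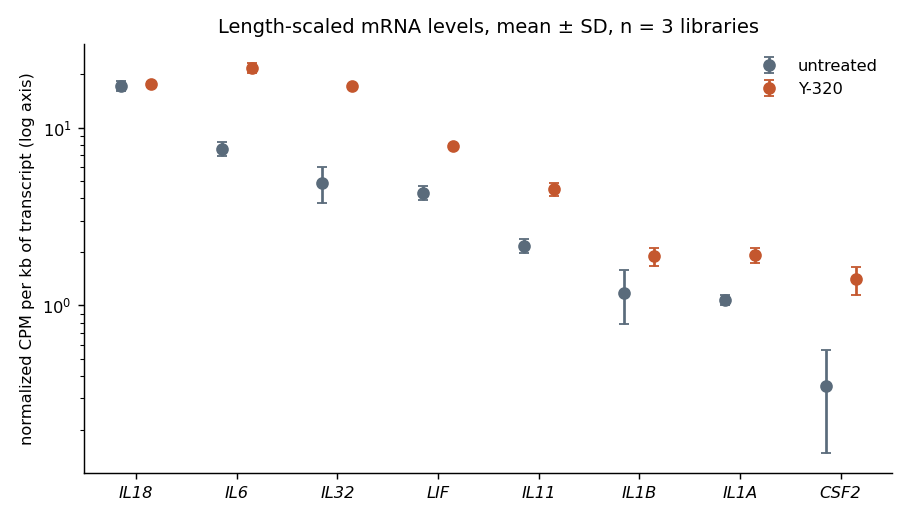
Mean ± SD of normalized CPM per kb of canonical transcript (logarithmic axis) for the 8 tested cytokine genes, ordered by their untreated level, n = 3 libraries per group. IL18 is at 17.2 and 17.5 in the 2 groups, while IL6 moves from 7.62 to 21.6 and IL32 from 4.91 to 17.1.

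The makeup of the summed CPM of the 10 genes differed between the groups. These shares are not scaled by transcript length, so a long mRNA such as LIF weighs more than its number of molecules. IL18 held 33.1% of the sum untreated and 18.2% with Y-320, while its own level was 19.1 and 19.5 CPM. IL6 went from 14.9% to 22.7% and IL32 from 6.97% to 13%, while LIF held 28.8% and 28.5%. CSF2 made up 0.488% and 1.03%.

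Receptor chains for these cytokines were examined in the same libraries. Of 12 receptor genes, 7 were tested, 4 were called higher and none lower, with a median log2 fold change of 0.32. The higher calls are 57.1% of those tested, where 26.2% of all genes were called higher and 25.4% lower. IL6R, the IL-6 binding chain, had 163, 167 and 169 counts without the compound, against 402, 374 and 397 with it, with no overlap. It rose from 7.68 ± 0.321 to 17.5 ± 0.407 CPM (SD, n = 3 libraries), a log2 fold change of 1.19 (SE 0.065, adjusted p = 1.68e-07 by edgeR). IL6ST, the shared signalling chain, had 2449 to 2894 counts untreated and 3374 to 3570 with Y-320, and rose by 0.32 log2 units (SE 0.038, adjusted p = 4.96e-05 by edgeR). IL6 and both chains of its receptor were thus higher in the same libraries.

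The private chains of IL-11 and LIF did not follow their ligands past the threshold. IL11RA had 76.3 to 96.1 counts untreated and 65 to 85 with Y-320, with a log2 fold change of -0.25 (95% interval -0.60 to 0.10, adjusted p = 0.212 by edgeR), and 31.8% of its words occur in other genes. LIFR had 167 to 178 and 162 to 172 counts, with a log2 fold change of -0.09 (95% interval -0.27 to 0.10, adjusted p = 0.422 by edgeR). CSF2RA, the GM-CSF binding chain, rose from 3.58 ± 0.315 to 5.18 ± 0.602 CPM (SD, n = 3 libraries; log2 fold change 0.53, adjusted p = 0.00632 by edgeR). CSF2RB, the chain it needs for signalling, had 0, 2 and 2 counts untreated and none with Y-320. 

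For IL-1, the accessory chain IL1RAP rose from 18.9 ± 0.55 to 31 ± 0.387 CPM (SD, n = 3 libraries; log2 fold change 0.71, SE 0.045, adjusted p = 4.46e-07 by edgeR). The binding chain IL1R1 varied widely within both groups, with 42.3, 31.1 and 59.4 counts without the compound, against 68.9, 45 and 28.1 with it, and the groups overlapped (log2 fold change 0.06, 95% interval -0.63 to 0.76, adjusted p = 0.881 by edgeR). For IL-18, IL18R1 had 4 to 11 counts untreated and 1 to 13 with Y-320 and was not tested, and IL18RAP had none. CCR2 had no count in any library. CCR6 had at most 1.08 counts in a library.

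Decoys and antagonists hold these cytokines in check. Of 13 such genes, 9 were tested, 6 were called higher and none lower, with a median log2 fold change of 0.37. The higher calls are 66.7% of those tested. Over all genes tested, 26.2% were called higher and 25.4% lower. IL1R2, a decoy that binds IL-1 without signalling, had 14, 13 and 9 counts without the compound, against 66, 66 and 63 with it. It was separated widely between the groups, from 0.555 ± 0.128 to 2.92 ± 0.0923 CPM (SD, n = 3 libraries), and its log2 fold change of 2.38 (SE 0.22, 95% interval 1.90 to 2.87, adjusted p = 7.51e-06 by edgeR) exceeded the point estimate of every cytokine gene.

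IL1RN, the secreted antagonist of the IL-1 receptor, had 205, 212 and 236 counts without the compound, against 285, 337 and 285 with it, a log2 fold change of 0.43 (SE 0.096, adjusted p = 0.00331 by edgeR). SIGIRR, a receptor that damps IL-1 signalling, rose by 0.57 log2 units (SE 0.071, adjusted p = 7.49e-05 by edgeR) and PIAS3, an inhibitor of STAT3, by 0.32 (adjusted p = 9.24e-05). TOLLIP, which binds IRAK1, rose by 0.19 (adjusted p = 0.00879 by edgeR).

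The ratio of IL1RN to IL1A within a library, per kb of transcript, was 5.51, 5.46 and 5.59 untreated and 3.51, 4.64 and 4.38 with Y-320. Every Y-320 library lay below every untreated one. The mean log2 ratio was 2.46 ± 0.017 untreated and 2.05 ± 0.21 with Y-320 (SD, n = 3 libraries), a difference of -0.41 with a two-sided exact permutation p of 0.1, the smallest that 3 against 3 libraries allow. IL1A had only 44 to 50 counts in untreated libraries, and counting error at that depth is larger than the SD of 0.017. That SD therefore does not show how precisely the untreated ratio is known.

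IL18BP, which neutralises IL-18, had 66.9, 72 and 74.7 counts without the compound, against 90.4, 107 and 86.8 with it (log2 fold change 0.37, adjusted p = 0.0486 by edgeR). That call was lost under 12 of 15 alternatives, among them leaving out any single library, where log2 fold changes were 0.26 to 0.42 and adjusted p reached 0.173 by edgeR. Without both untreated replicate 3 and Y-320 replicate 2 the adjusted p was 0.22 by edgeR. The feedback inhibitors of gp130 signalling did not pass. SOCS3 had 152 to 163 and 146 to 176 counts (log2 fold change 0.03, 95% interval -0.18 to 0.25, adjusted p = 0.797 by edgeR) and SOCS1 10 to 13 and 15 to 25 counts (0.65, 95% interval -0.03 to 1.33, adjusted p = 0.0998). The chemokine scavenger ACKR2 had 27.1 to 47.6 counts untreated and 23.7 to 33.3 with Y-320 (log2 fold change -0.44, adjusted p = 0.185 by edgeR). IL36RN had at most 10 counts in a library, ACKR4 at most 7 and IL37 at most 2, and ACKR1 had none.

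**Figure D3:**
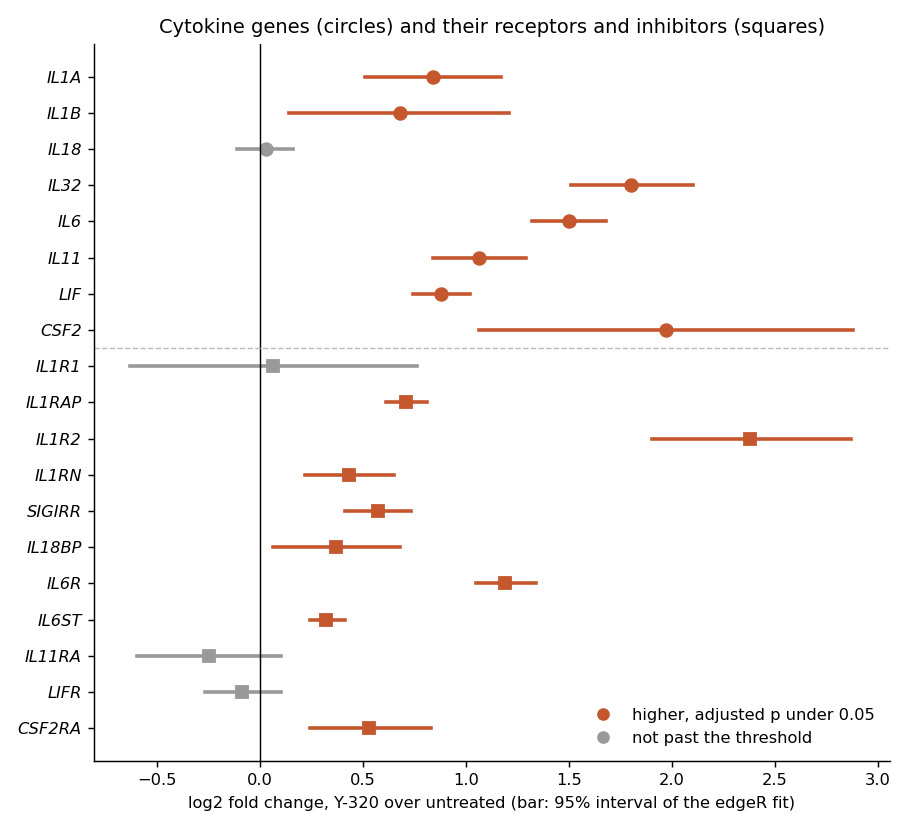
Log2 fold change with Y-320 (x axis) and its 95% interval from the edgeR fit for the 8 tested cytokine genes (circles) and 11 of their receptors and inhibitors (squares), 3 libraries per group. IL1R2 at 2.38 lies furthest right, IL6 at 1.50 and IL6R at 1.19 stand with narrow intervals, and IL18, IL1R1, IL11RA and LIFR lie across 0.

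Genes whose products activate or process IL-1 and IL-18 were called in both directions. Among 17 inflammasome and processing genes 12 were tested, and 1 was called higher and 5 lower. These are 8.33% and 41.7%, against 26.2% and 25.4% of all genes tested. The median log2 fold change was -0.07. CASP1, which cleaves IL-1β and IL-18, had 60.9, 78.4 and 84 counts without the compound, against 50.1, 37.1 and 59.9 with it (log2 fold change -0.64, SE 0.21, adjusted p = 0.0238 by edgeR). The CASP1 call was lost without untreated replicate 2 (-0.58, adjusted p = 0.0761 by edgeR), untreated replicate 3 (-0.56, 0.0824), Y-320 replicate 1 (-0.64, 0.053) or Y-320 replicate 2 (-0.49, 0.0772). PYCARD, the inflammasome adaptor, fell by 0.43 (adjusted p = 0.00323 by edgeR), though 56.3% of its words occur in other genes. CAPN1 and CAPN2, the calpains that process IL-1α, fell by 0.31 and 0.37 (adjusted p = 9.79e-06 and 6.18e-07 by edgeR), and CASP8 fell by 0.31 (adjusted p = 2.16e-04). The inflammasome sensor NLRP1 rose by 0.39 (adjusted p = 3.05e-05 by edgeR).

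Downstream of the IL-1 and IL-18 receptors, 14 of 15 signal transducers were tested, and 6 were called higher and 1 lower. These are 42.9% and 7.14%, against 26.2% and 25.4% of all genes tested. The median log2 fold change was 0.16. IRAK2, a kinase-like protein that sustains NF-κB signalling, stood apart from the rest with 221, 197 and 229 counts without the compound, against 830, 892 and 811 with it. It rose from 9.95 ± 0.482 to 37.9 ± 2.52 CPM (SD, n = 3 libraries), a log2 fold change of 1.93 (SE 0.065, adjusted p = 6.24e-09 by edgeR). MAP3K8 rose by 0.37, TRAF6 by 0.21 and ECSIT by 0.18 log2 units, and TAB1 fell by 0.18. The TRAF6 and TAB1 calls were lost with DESeq2 (adjusted p = 0.128 and 0.0768) and without both untreated replicate 3 and Y-320 replicate 2 (0.0615 and 0.0949 by edgeR). The abundant IRAK1 and TAB2 had log2 fold changes of -0.01 and 0.03 and did not pass.

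Below gp130 and the GM-CSF receptor, all 11 transducers were tested, 1 was called higher and 4 lower, with a median of -0.03. These are 9.09% and 36.4%, against 26.2% and 25.4% of all genes tested. STAT3, the main transducer of the IL-6 family, was at 234 ± 2.45 CPM untreated and 229 ± 1.72 CPM with Y-320 (SD, n = 3 libraries; log2 fold change -0.03, 95% interval -0.08 to 0.03, adjusted p = 0.371 by edgeR). SHC1 fell by 0.14 (adjusted p = 0.00302 by edgeR) and TYK2 rose by 0.14 (0.00279). STAT5A and GAB1 had log2 fold changes of -0.19 and -0.18 (adjusted p = 0.0444 and 0.0435 by edgeR). The STAT5A call was lost without untreated replicate 2 or 3 or Y-320 replicate 1 or 3, and the GAB1 call without untreated replicate 1 or 3 or Y-320 replicate 1 or 3. Leaving out untreated replicate 3 or Y-320 replicate 1 left 2 of the 4 lower calls.

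Proteins that act on AU-rich and stem-loop elements of cytokine mRNAs were called in both directions. All 22 were tested, 7 were called higher and 6 lower, or 31.8% and 27.3%, near the 26.2% and 25.4% of all genes tested, with a median of -0.05. ARID5A, which stabilises IL6 mRNA, rose from 3.9 ± 0.545 to 8.92 ± 0.388 CPM (SD, n = 3 libraries; log2 fold change 1.19, SE 0.11, adjusted p = 1.05e-05 by edgeR). Destabilising factors also rose, ZFP36 by 0.60 (adjusted p = 1.19e-05 by edgeR), ZC3H12A by 0.30 (0.0115) and ZFP36L1 by 0.27 (3.37e-05). With DESeq2 the ZC3H12A call was lost (adjusted p = 0.0707), and 4 genes of the list were called higher. ZFP36L2 fell by 0.55 (adjusted p = 4.35e-07 by edgeR) and MAPKAPK3 by 0.34 (1.12e-04), and CNOT1 had a log2 fold change of -0.05 (adjusted p = 0.111).

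The nonamer printed above is carried by many other genes in these cells. Of 1352 tested protein-coding genes with it, 28.4% were called higher and 26.8% lower, against 27.4% and 27.8% of 12991 without it. The 4 cytokine genes that carry it were all called higher, as were IL6, IL1A and IL32, which lack it.

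**Figure D4:**
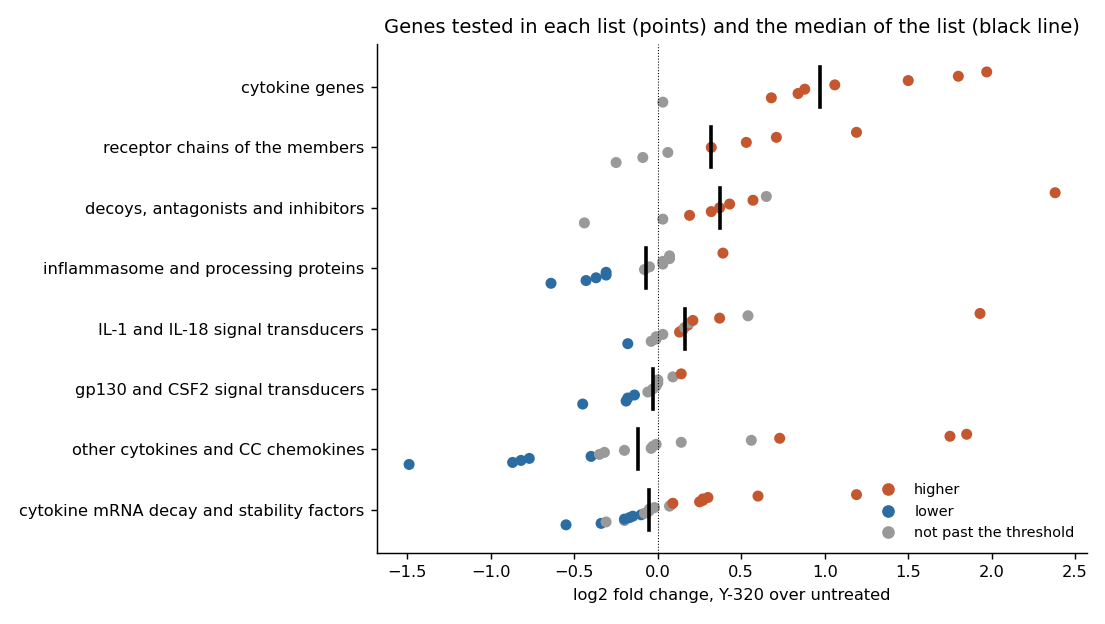
Log2 fold change with Y-320 (x axis) of every tested gene of the cytokine group and 7 related lists, coloured by call, with the list median as a black line; vertical position within a list only spreads the points. The cytokine genes have a median of 0.97, and the other lists have medians between -0.12 and 0.37.

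Cell type markers moved with the compound as well, where 26.2% of all genes tested were called higher and 25.4% lower. The epithelial markers describe the line itself, an epithelial cancer line, and the leukocyte, fibroblast and endothelial markers describe other cell types. All 10 epithelial markers were measured, 9 were called lower and EPCAM higher, and their sum went from 11708 to 12276 CPM untreated to 7156 to 7253 CPM with Y-320. Of 12 leukocyte markers 4 were tested, 2 were called higher and none lower, the list summed to 37.6 to 39.2 CPM and 69.1 to 75.3 CPM, and 3 of them, MS4A1 and TYROBP included, had no count. Most of that sum was CD68, at 36.5 and 69.7 CPM, of whose words 81% occur in other genes. ITGAM, a myeloid integrin chain, had 4, 0 and 2 counts without the compound, against 13, 17 and 16 with it (adjusted p = 0.00203 by edgeR). The monocyte gene CD14 was at 0.726 and 1.06 CPM (log2 fold change 0.55, adjusted p = 0.117 by edgeR) and the pan-leukocyte gene PTPRC at 0.762 and 0.491 CPM (-0.63, adjusted p = 0.104), and neither passed. Fibroblast and endothelial markers, of which 5 of 10 were called lower and PECAM1 higher, summed to 269 to 303 CPM and 141 to 162 CPM.

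COL3A1 and DCN, both fibroblast markers, were highest in untreated replicate 3 and Y-320 replicate 2 of their groups. COL3A1 had 91, 117 and 320 counts without the compound, against 40, 159 and 38 with it. Without these 2 libraries 6 of the 7 cytokine genes were still called higher and none lower, and IL1B was not (log2 fold change 0.78, adjusted p = 0.0665 by edgeR). The part of the markers in the cytokine changes, COL3A1 and DCN included, was not tested.

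**Figure D5:**
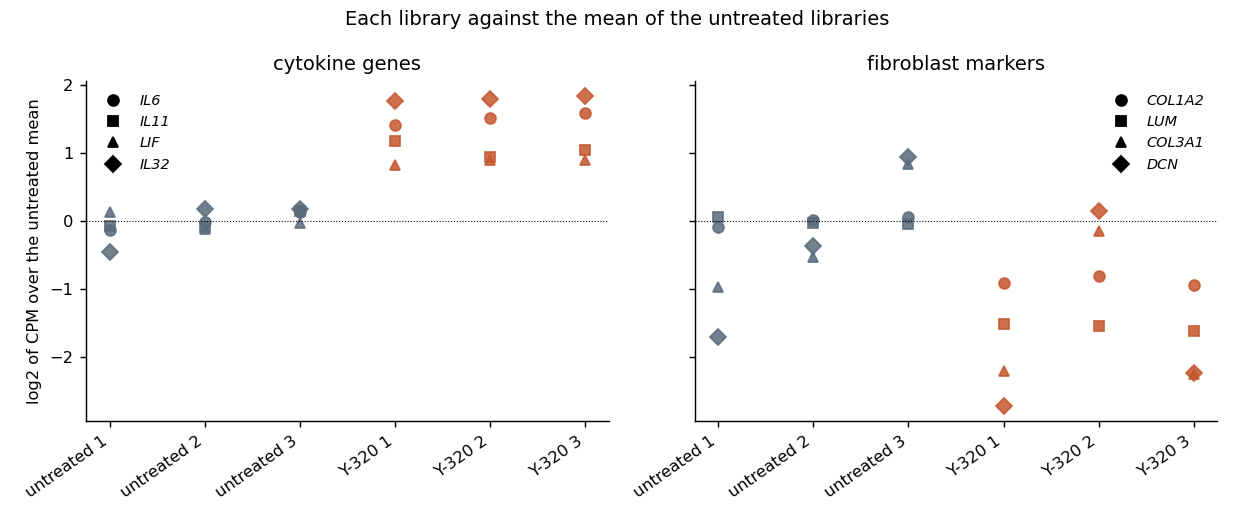
Log2 of CPM over the mean of the untreated libraries (y axis) in each of the 6 libraries for 4 cytokine genes (left) and 4 fibroblast markers (right), with one point per library. The cytokine genes are higher in all Y-320 libraries, COL1A2 and LUM are lower in them, and COL3A1 and DCN are high in untreated replicate 3 and Y-320 replicate 2.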

How the data were processed

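RNA from 6 HDQ-P1 libraries (3 untreated, 3 given Y-320, 1 μM, 48 h) was sequenced on an Illumina NextSeq 500. The authors deposited estimated counts per Ensembl gene, without normalization. The submitters' processing notes name kallisto 0.46.1 and GRCh38/hg38, and the Ensembl release is not given in the sources used here. Of the values, 40.1% were not whole (tolerance 0.001), since reads shared by transcripts are divided, so genes with shared sequence are less certain. Of 40295 identifiers, 35390 had a name. Counts were rounded, filtered (filterByExpr, minimum 10 counts, 15 in total), scaled by TMM and compared by edgeR 4.0.16 (quasi-likelihood, no block) in R 4.3.3, adjusted by Benjamini-Hochberg, at a threshold of 0.05. SE was the absolute log2 fold change over the square root of F. Shared sequence was counted in 31-base words of GENCODE 44 transcripts. Alternatives used DESeq2 1.42.0, limma-voom 3.58.1, other filters and scalings, a replicate block and leaving out each library. On simulated data (16580 genes), the fit recovered 73% of 100 genes changed by 0.75 log2 units and 96% of 100 changed by 2, and 3.43% of its calls were unchanged genes. Far fewer genes were changed there than the 51.5% called in these data, where called genes had a median absolute change of 0.33 log2 units. Those rates therefore do not describe the calls in these data.

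The 10 genes and the related lists were chosen with earlier results of these data known. All 10 are named, with every receptor and inhibitor, and from other lists at most 5 called genes of at least 1 mean CPM with the largest changes and the 2 most abundant. A few genes that meet this rule are not reported here, though list counts include them. COL3A1, DCN, STEAP1B, IL12B and other marker genes were named after their values were seen. Exact tests used scipy 1.17.1, tables pandas 2.3.3 with numpy 2.4.6, and plots matplotlib 3.10.9, in Python 3.11.15.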

Additional observations from a re-analysis of the deposited data

How the results depend on the processing

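For the cytokine genes, 108 of the recomputed values kept direction and call, 8 lost the call and 3 turned direction. The 8 were all IL1B, including the replicate block (adjusted p = 0.0522). The 3 were IL18, at -0.0017 with upper-quartile scaling and -0.01 without untreated replicate 2 or without the 2 libraries of highest COL3A1, an alternative chosen after seeing the data (-0.01 to 0.08 without single libraries). IL6 kept its call in every alternative run, at 1.44 to 1.58, as did IL32 at 1.62 to 1.90, IL11 at 1.00 to 1.19, LIF at 0.82 to 0.95, IL1A at 0.78 to 0.92 and, where it was tested, CSF2 at 1.55 to 2.26. A stricter filter removed CSF2. With a log2 fold change of at least 1 required, 4 cytokine genes, 403 genes higher and 430 genes lower remained over all. DESeq2 called 3405 genes higher and 3278 lower, among them 0 lower IL-1 and IL-18 transducers (0 also without the 2 libraries), 2 lower gp130 transducers, 3 lower other cytokines and 4 higher decay factors. The gp130 transducers had 2 lower calls also with no filter, with library size scaling and without the 2 libraries, and 2 to 4 when single libraries were left out, where other cytokines had 3 to 5. The IL1RN to IL1A difference was -0.49 to -0.29 without single libraries. Uncalled values turned for IL1R1 (-0.11 without untreated replicate 2, -0.28 without Y-320 replicate 1, up to 0.33), SOCS3 (-0.03 without Y-320 replicate 2 to 0.11, -0.01 without the 2 libraries), IRAK1 (0.0033 without untreated replicate 1) and CLCF1 (-0.06 to 0.02, the latter without untreated replicate 3, 0.01 without the 2 libraries). The causes were not tested.

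Replicate numbers did not pair the samples: same-numbered libraries correlated at -0.002, 0.015 and 0.002 in their deviations from group means, and with the replicate block 6 cytokine genes were called higher. Depth limits CCL2, CCL20 and CSF2, where 3 counts are 0.131 to 0.144 CPM.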

Other observations

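Many other cytokine and CC chemokine genes had few or no counts in these cells. Of 44 such genes, 13 had no count in any library, and 21 had at most 3 counts in every library, these 13 included. Of the 16 tested, 3 were called higher and 5 lower, with a median log2 fold change of -0.12. These are 18.8% and 31.2%, near the 26.2% and 25.4% of all genes tested. TSLP, an epithelial cytokine that primes dendritic cells, had 11, 10 and 9 counts without the compound, against 35, 44 and 33 with it (log2 fold change 1.85, SE 0.26, adjusted p = 1.61e-04 by edgeR). IL23A, the private chain of IL-23, which maintains cells that make interleukin-17, had 13, 16 and 12 counts without the compound, against 47, 49 and 47 with it (1.75, SE 0.22, adjusted p = 8.54e-05 by edgeR). TSLP and IL23A were low in every untreated library, and their groups did not overlap. IL12B, the gene of the other chain of IL-23, had at most 4 counts in an untreated library and at most 3 with Y-320, and was not tested.

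Other members were lower with Y-320. CCL5, a T cell attractant, fell by 0.77 (adjusted p = 1.97e-04 by edgeR, with 25.2% of its words in other genes) and CSF1, the macrophage growth factor, by 0.40 (6.64e-05). CLCF1, a cytokine that signals through gp130, had a log2 fold change of -0.03 (adjusted p = 0.731 by edgeR). The count of lower calls was 3 without untreated replicate 2 and 3 without Y-320 replicate 1.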
